A study of Mus musculus with 15 samples.

Results

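Genes tied to the cellular response to low oxygen were followed by mRNA level through 15 libraries of mouse fat cells under drug treatment or vehicle. The 10 genes were chosen by name, with earlier results of these data known, from the 24421 genes of the deposited count table. They were Hif1a and Epas1, which encode the α subunits of hypoxia-inducible factors (HIF); Egln1 and Egln3, which encode prolyl hydroxylases that mark those subunits for destruction; P4ha1 and P4ha2, which encode catalytic subunits of collagen prolyl 4-hydroxylase; and the hypoxia targets Bnip3, Ndrg1, Ankrd37 and Hilpda. After 4 h of forskolin 9 of the 10 were higher than in vehicle, beside 28.4% of all tested genes, and Hilpda was 20.8-fold higher. By 3 days Hif1a and Ndrg1 overlapped vehicle again, while Egln1, Egln3 and Bnip3 were still 2.25-, 7.94- and 3.19-fold higher. After 3 days of rosiglitazone Egln3 and Bnip3 were 7.48- and 2.89-fold higher than in vehicle, while P4ha2 and Ndrg1 were lower.

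The cells were MAP cells, a line of immortalized progenitors of mouse adipocytes, studied after differentiation into fat cells. FSK4h, FSK1D and FSK3D denote forskolin, an activator of adenylyl cyclase that raises cAMP, given for 4 h, 1 day or 3 days, and Rosi3D denotes the PPARγ agonist rosiglitazone, given for 3 days. Vehicle cells were the shared control, and each of the 5 groups had 3 libraries. Every group, vehicle included, had been exposed at confluence to insulin, isobutylmethylxanthine (which itself raises cAMP), dexamethasone and rosiglitazone for 2 days and then to insulin and rosiglitazone for 2 days, and treatment began at day 7 to 8. The labels call these treatments browning, the gain of heat-producing features by fat cells. The sources used here give neither the doses nor the oxygen level of the cultures nor the harvest time of the vehicle cells. A single cell line was used. Since treatment began at day 7 to 8 in all groups, time on a treatment and age of the cells cannot be told apart. Whether libraries within a group derive from separate cultures is not stated, so the p-values measure a spread that may be technical.

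HIF is a pair of an α subunit, HIF-1α (Hif1a) or HIF-2α (Epas1), with the constant partner ARNT. In oxygen, EGLN enzymes hydroxylate the α subunit, the von Hippel-Lindau protein (Vhl) binds the hydroxylated form, and the subunit is degraded. When oxygen is short the α subunit persists, the pair binds hypoxia response elements and target genes for glycolysis, angiogenesis, mitophagy and matrix assembly are transcribed, among them Egln1 and Egln3 themselves, which closes a feedback loop. This switch acts on the protein, which mRNA counts do not show. In fat, HIF signalling is known from expanding, poorly perfused tissue.

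All 10 members passed the filter on low counts, among 14421 genes that did. Library totals ran from 14056200 counts (FSK3D S11; S numbers are the running library numbers in the table) to 56282582 (Rosi3D S13), and no member fell below 49 counts in a library. Levels are CPM, counts brought to the same sequencing depth with TMM scaling, and a difference is a log2 fold change ± standard error (SE) from the edgeR quasi-likelihood test, called at a Benjamini-Hochberg adjusted p under 0.05 over the 14421 tested genes. The 4 comparisons with vehicle share the vehicle libraries. Adipocyte marker transcripts (8 of 8 detected) summed to between 7979 and 9190 CPM in vehicle, 8660 and 10071 CPM in FSK4h, 6393 and 7022 CPM in FSK1D, 13890 and 14046 CPM in FSK3D, and 15076 and 15971 CPM in Rosi3D. Smooth muscle or myofibroblast markers (4 of 4 detected) summed to 253 to 262, 186 to 203, 21.9 to 23.4, 56.5 to 65.8 and 53.0 to 53.4 CPM in the same order of groups. Most of this sum was Acta2, while Myh11 went the other way in Rosi3D, from a mean of 3.28 CPM in vehicle to 9.18 CPM. Adipocyte progenitor markers (5 of 6 detected in the treated groups, Dpp4 being at 0 there, and 6 of 6 in vehicle) lay between 719 and 763 CPM in vehicle, 622 and 702 CPM in FSK4h, 905 and 943 CPM in FSK1D, 712 and 779.7 CPM in FSK3D, and 377 and 418 CPM in Rosi3D. These sums hide opposite shifts. From vehicle to FSK4h mean Pdgfra went from 209 to 373 CPM and mean Pdgfrb from 402 to 154 CPM. In FSK1D Ly6a was at 431 CPM, against 121 CPM in vehicle, while Pdgfrb was at 209 CPM. Lpl was the largest part of the adipocyte sum in every group, and adipocyte markers also parted. From vehicle to FSK1D mean Adipoq went from 1528 to 693 CPM and mean Cidec from 278 to 397 CPM. In Rosi3D Pparg was at 189 CPM, against 197 CPM in vehicle, while the other adipocyte markers had higher means than in vehicle. Leukocyte markers (Ptprc and Adgre1 at or near 0) summed to at most 2.77 CPM in a library. In bulk libraries fewer cells of a type and less RNA per cell cannot be told apart, and the part of these shifts in the results was not tested.

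RefSeq promoter windows (GRCm38.p6, 250 bases before to 50 bases after a transcript start) were found for 8 of the 10 members, 9 windows in all; Epas1 and Ndrg1 had none. Each window was searched on both strands for the core letters of the hypoxia response element, ACGTG or its variant GCGTG, and for the first bases of the cAMP response element, TGACG. All 9 windows held at least 1 core, against 43.8% of all 32851 windows of the same length. The Hilpda windows overlap, and the only core and the only TGACG of the first also lie in the second. The windows below are a selection: Ankrd37, Egln3, P4ha2, Bnip3 and the second Hilpda start. Those of Egln1, P4ha1, Hif1a and the first Hilpda start are not printed, and their cores are counted below. Matches are in capitals on whichever strand they fall, a match on the other strand appearing as its reverse complement. The second Hilpda start (chr6:29272376-29272675, plus strand) had 3 cores and 2 TGACG matches, and Ankrd37 (chr8:45999801-46000100, minus strand) had 4 cores in 3 places, a pair of them sharing bases, and no TGACG. Egln3 (chr12:54203825-54204124, minus strand) had 1 core, far upstream, and 1 TGACG near the start, and P4ha2 (chr11:54100674-54100973, plus strand) had 4 cores and 2 TGACG matches. Bnip3 (chr7:138909457-138909756, minus strand) had 5 cores in 4 places, because CACGTG reads as a core on both strands, and no TGACG.
Hilpda: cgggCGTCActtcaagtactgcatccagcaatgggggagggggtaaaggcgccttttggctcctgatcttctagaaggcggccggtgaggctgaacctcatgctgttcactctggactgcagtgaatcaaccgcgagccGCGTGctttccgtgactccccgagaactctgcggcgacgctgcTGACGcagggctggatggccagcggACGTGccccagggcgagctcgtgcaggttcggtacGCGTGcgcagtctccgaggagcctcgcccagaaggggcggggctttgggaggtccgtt
Ankrd37: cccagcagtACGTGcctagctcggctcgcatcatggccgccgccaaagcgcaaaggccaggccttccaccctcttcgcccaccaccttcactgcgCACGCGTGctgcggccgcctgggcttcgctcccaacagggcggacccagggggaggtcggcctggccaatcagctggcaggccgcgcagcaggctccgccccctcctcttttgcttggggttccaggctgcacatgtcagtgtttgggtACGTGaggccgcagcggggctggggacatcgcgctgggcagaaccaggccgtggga
Egln3: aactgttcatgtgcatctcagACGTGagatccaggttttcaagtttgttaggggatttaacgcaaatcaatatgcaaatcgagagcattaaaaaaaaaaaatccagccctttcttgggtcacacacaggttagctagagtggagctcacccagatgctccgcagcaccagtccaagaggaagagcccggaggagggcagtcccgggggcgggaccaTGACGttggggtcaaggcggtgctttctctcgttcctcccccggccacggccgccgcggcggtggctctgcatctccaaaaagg
P4ha2: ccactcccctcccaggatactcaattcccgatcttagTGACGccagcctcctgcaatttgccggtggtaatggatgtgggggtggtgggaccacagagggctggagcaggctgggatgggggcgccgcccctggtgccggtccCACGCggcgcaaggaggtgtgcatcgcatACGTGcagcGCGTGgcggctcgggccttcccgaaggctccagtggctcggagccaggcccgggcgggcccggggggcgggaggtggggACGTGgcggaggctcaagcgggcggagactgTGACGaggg
Bnip3: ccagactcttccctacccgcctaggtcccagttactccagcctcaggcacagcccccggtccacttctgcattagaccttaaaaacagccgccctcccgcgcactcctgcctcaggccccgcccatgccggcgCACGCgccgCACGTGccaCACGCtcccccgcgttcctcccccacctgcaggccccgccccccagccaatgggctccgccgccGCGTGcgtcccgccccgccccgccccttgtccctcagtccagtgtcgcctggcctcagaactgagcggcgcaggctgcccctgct

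Of all windows, 19.6% held ACGTG, 32.4% held GCGTG, 20.8% held TGACG and 12.9% held a core together with TGACG. A window with at least 3 cores was rarer, at 8.93% of all windows, and one with at least 4 made up 3.86%. P4ha1 had 3 cores, Hif1a had 3 in 2 places because of a CACGTG, Egln1 had 2 and the first Hilpda start had 1. TGACG stood in the windows of Hilpda, P4ha2 and Egln3, shared no base with a core there, and was absent from the letters of the Hif1a, Egln1, P4ha1, Bnip3 and Ankrd37 windows. The full palindrome that TGACG begins was in none of the 9 windows and in 1.79% of all. Such matches are a description of these letters and not of bound sites.

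**Figure D1:**
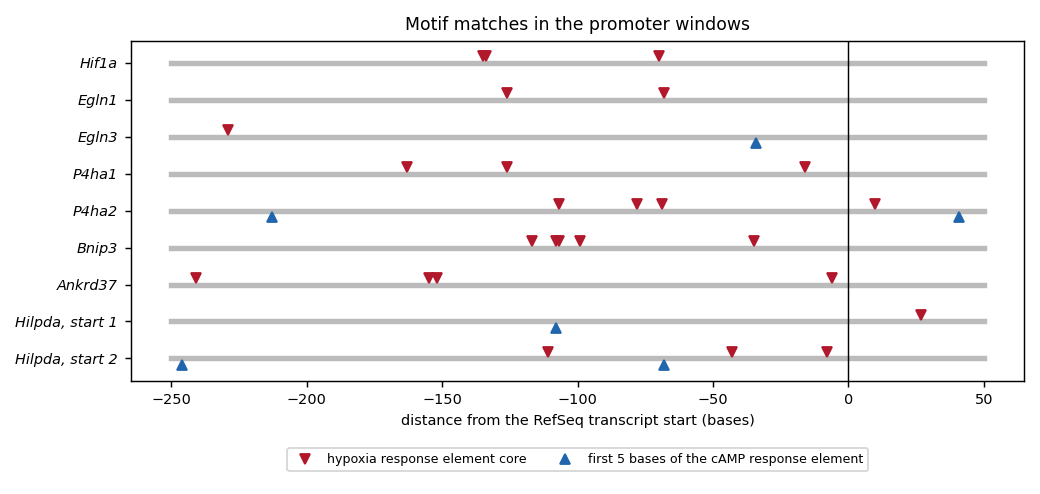
Positions of motif matches in the 9 promoter windows, as distance in bases from the RefSeq transcript start (vertical line). Red triangles mark hypoxia response element cores and blue triangles mark TGACG; every window has a red mark, and blue marks occur for Egln3, P4ha2 and both Hilpda starts.

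Hif1a, the oxygen-regulated subunit of HIF-1 (chr12:73901375-73947530, plus strand), rose early and then returned. Its level was 371, 352 and 397 CPM in the vehicle libraries, 1163, 1196 and 1106 CPM in FSK4h, 648, 544 and 665 CPM in FSK1D and 376, 366 and 328 CPM in FSK3D. All FSK4h libraries stood above all FSK1D libraries, these stood above all vehicle libraries, and FSK3D and vehicle overlapped. Against vehicle the difference was 1.63 ± 0.07 at 4 h (adjusted p = 9.20e-15) and 0.73 ± 0.07 at 1 day (adjusted p = 1.07e-08). At 3 days it was -0.07, with a 95% interval of -0.20 to 0.07 (adjusted p = 0.433). Exons of Hif1a overlap those of Gm15283 on the opposite strand and Gm49321 on the same strand, neither of which is a row of the table, and the sources used here do not say how the counting treated strand.

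Epas1, the HIF-2α subunit known best from blood vessels (chr17:86753700-86833410, plus strand), did not follow Hif1a. It was measured at 10.5, 10.1 and 10.2 CPM in vehicle, 9.79, 13.4 and 10.3 CPM in FSK4h, 6.51, 7.27 and 5.47 CPM in FSK1D and 10.2, 8.09 and 9.19 CPM in FSK3D. The FSK1D libraries lay below every other library of the course, and the remaining groups overlapped. Epas1 fell at 1 day by 0.68 ± 0.13 on the log2 scale (adjusted p = 7.80e-05). Its differences from vehicle at 4 h (0.11, 95% interval -0.14 to 0.37, adjusted p = 0.451) and 3 days (-0.15, 95% interval -0.42 to 0.11, adjusted p = 0.334) did not pass. Endothelial markers, with which Epas1 expression is often associated, were low: they summed to at most 9.29 CPM in any library, most of it Kdr, while Cdh5 was at or under 0.109 CPM and Tie1 was at 0 in all treated groups.

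Per kilobase of exon, Hif1a stood at 78.4 ± 4.78 CPM per kb in vehicle and Epas1 at 1.92 ± 0.04 CPM per kb (SD, n = 3). The ratio of these levels per kb, Hif1a over Epas1, was 40.8 ± 2.39 in vehicle, 118 ± 16.7 in FSK4h, 111 ± 26.2 in FSK1D and 44.2 ± 5.86 in FSK3D. The lowest ratio in FSK1D, 84.1, was above the highest in vehicle, 43.6. At 4 h the shift in the ratio came with higher Hif1a, and at 1 day with higher Hif1a and lower Epas1.

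Egln1, known as PHD2 and the main oxygen-sensing hydroxylase of HIF-1α (chr8:124908587-124949324, minus strand), rose and stayed up. It had 117, 129.8 and 128 CPM in vehicle, 337, 389 and 333 CPM in FSK4h, 296, 327 and 286 CPM in FSK1D and 265, 281 and 300.2 CPM in FSK3D. Every forskolin library was above every vehicle library. The differences from vehicle were 1.50 ± 0.06 at 4 h (adjusted p = 3.31e-18), 1.28 ± 0.06 at 1 day (adjusted p = 2.77e-16) and 1.17 ± 0.06 at 3 days (adjusted p = 2.17e-15).

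Egln3, known as PHD3 and a strongly hypoxia-inducible relative of Egln1 (chr12:54178981-54203860, minus strand), had the largest lasting rise among the 10 genes. Its level was 11.6, 22.2 and 17.3 CPM in vehicle, 137, 187 and 152 CPM in FSK4h, 101, 118 and 89.5 CPM in FSK1D and 127, 132 and 144 CPM in FSK3D. The lowest forskolin library was above the highest vehicle library, although the vehicle libraries varied widely among themselves. The differences from vehicle were 3.22 ± 0.21 at 4 h (adjusted p = 9.78e-08), 2.60 ± 0.21 at 1 day (adjusted p = 1.31e-06) and 2.99 ± 0.21 at 3 days (adjusted p = 2.56e-07). In vehicle Egln1 exceeded Egln3 per kb by 5.93 ± 1.65 times (SD, n = 3). The ratio was 1.70 ± 0.148 in FSK4h, 2.25 ± 0.158 in FSK1D and 1.59 ± 0.0263 in FSK3D. Every ratio in these groups, at most 2.42, was below every ratio in vehicle, at least 4.45.

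P4ha1 and P4ha2 encode the α subunits that hydroxylate proline in collagen, a reaction that stabilizes the collagen triple helix and, like that of EGLN enzymes, uses oxygen. P4ha1 (chr10:59323296-59373304, plus strand) had 215, 217 and 226 CPM in vehicle, 403, 448 and 409 CPM in FSK4h, 547, 565 and 525 CPM in FSK1D and 411, 431 and 419.9 CPM in FSK3D. P4ha2 (chr11:54100095-54131665, plus strand) had 68.1, 69.7 and 65.9 CPM in vehicle, 129.6, 129 and 125 CPM in FSK4h, 194, 208 and 204 CPM in FSK1D and 129, 118 and 127 CPM in FSK3D. Both genes peaked at 1 day, with every FSK1D library above all FSK4h and FSK3D libraries, and these above all vehicle libraries.

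The P4ha1 differences from vehicle were 0.94 ± 0.04 at 4 h (adjusted p = 8.01e-19), 1.32 ± 0.05 at 1 day (adjusted p = 2.09e-22) and 0.94 ± 0.05 at 3 days (adjusted p = 2.64e-18). For P4ha2 they were 0.91 ± 0.06 (adjusted p = 2.48e-15), 1.57 ± 0.06 (adjusted p = 2.88e-21) and 0.88 ± 0.06 (adjusted p = 2.03e-14) at the same times. The ratio of P4ha1 over P4ha2 per kb was 1.87 ± 0.102 in vehicle, 1.90 ± 0.103 in FSK4h, 1.57 ± 0.0716 in FSK1D and 1.96 ± 0.138 in FSK3D (SD, n = 3). Only the FSK1D ratios lay apart from the vehicle ratios in this course, with a highest value of 1.63 against a lowest of 1.80 in vehicle.

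Bnip3, a mitochondrial receptor for mitophagy (chr7:138890836-138909519, minus strand), rose step by step. Its libraries had 81.5, 95.6 and 96.9 CPM in vehicle, 172, 220.0 and 186 CPM in FSK4h, 246, 255 and 237 CPM in FSK1D and 274, 316 and 285 CPM in FSK3D. No group of the course overlapped another. The differences from vehicle were 1.08 ± 0.08 at 4 h (adjusted p = 9.72e-09), 1.43 ± 0.08 at 1 day (adjusted p = 4.81e-10) and 1.67 ± 0.08 at 3 days (adjusted p = 4.67e-11). The antisense gene Gm45507 overlaps Bnip3 exons and is not a row of the table.

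Ndrg1, a stress-responsive cytoplasmic protein induced by hypoxia (chr15:66929318-66969640, minus strand), was high at 4 h and 1 day only. It had 63.7, 58.0 and 55.0 CPM in vehicle, 161, 163 and 151 CPM in FSK4h, 146, 157 and 139.6 CPM in FSK1D and 61.3, 67.4 and 57.2 CPM in FSK3D. FSK4h and FSK1D overlapped each other, and FSK3D overlapped vehicle. The differences from vehicle were 1.43 ± 0.06 at 4 h (adjusted p = 1.51e-19), 1.32 ± 0.06 at 1 day (adjusted p = 2.84e-18) and 0.06 at 3 days (95% interval -0.07 to 0.19, adjusted p = 0.415). Gm2895 and Gm17035 overlap Ndrg1 exons on the opposite strand, and neither is a row of the table.

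Hilpda, a lipid droplet protein that inhibits the triglyceride lipase ATGL (chr6:29272488-29275446, plus strand), had the largest early rise of the 10. Its level was 7.25, 5.02 and 6.16 CPM in vehicle, 124, 144 and 116 CPM in FSK4h, 21.9, 29.5 and 24.3 CPM in FSK1D and 9.71, 9.94 and 11.8 CPM in FSK3D. The groups of the course did not overlap, with vehicle lowest, FSK3D next, then FSK1D and FSK4h at the top. At 4 h the difference of 4.38 ± 0.13 (adjusted p = 1.79e-15) was the 25th largest rise of the 14421 tested genes. It was 2.03 ± 0.14 at 1 day (adjusted p = 7.30e-10) and 0.78 ± 0.15 at 3 days (adjusted p = 0.000318).

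Ankrd37, an ankyrin repeat protein and known HIF-1 target (chr8:45996902-46005707, minus strand), was scarce in vehicle and declined slowly after its 4 h high. It had 2.01, 1.61 and 2.02 CPM in vehicle, 8.99, 12.6 and 8.57 CPM in FSK4h, 6.66, 7.95 and 6.55 CPM in FSK1D and 5.96, 4.11 and 4.36 CPM in FSK3D. Each group stood below the earlier time point and above vehicle without overlap. The differences from vehicle were 2.41 ± 0.18 (adjusted p = 1.87e-13) at 4 h, 1.91 ± 0.19 (adjusted p = 2.20e-10) at 1 day and 1.37 ± 0.20 (adjusted p = 4.07e-07) at 3 days. Ankrd37 exons overlap those of Ufsp2 and Lrp2bp on the opposite strand, so its counts are uncertain. Ufsp2 differed from vehicle by 0.24, 0.41 and 0.19 at the 3 times, and Lrp2bp was not called.

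**Figure D2:**
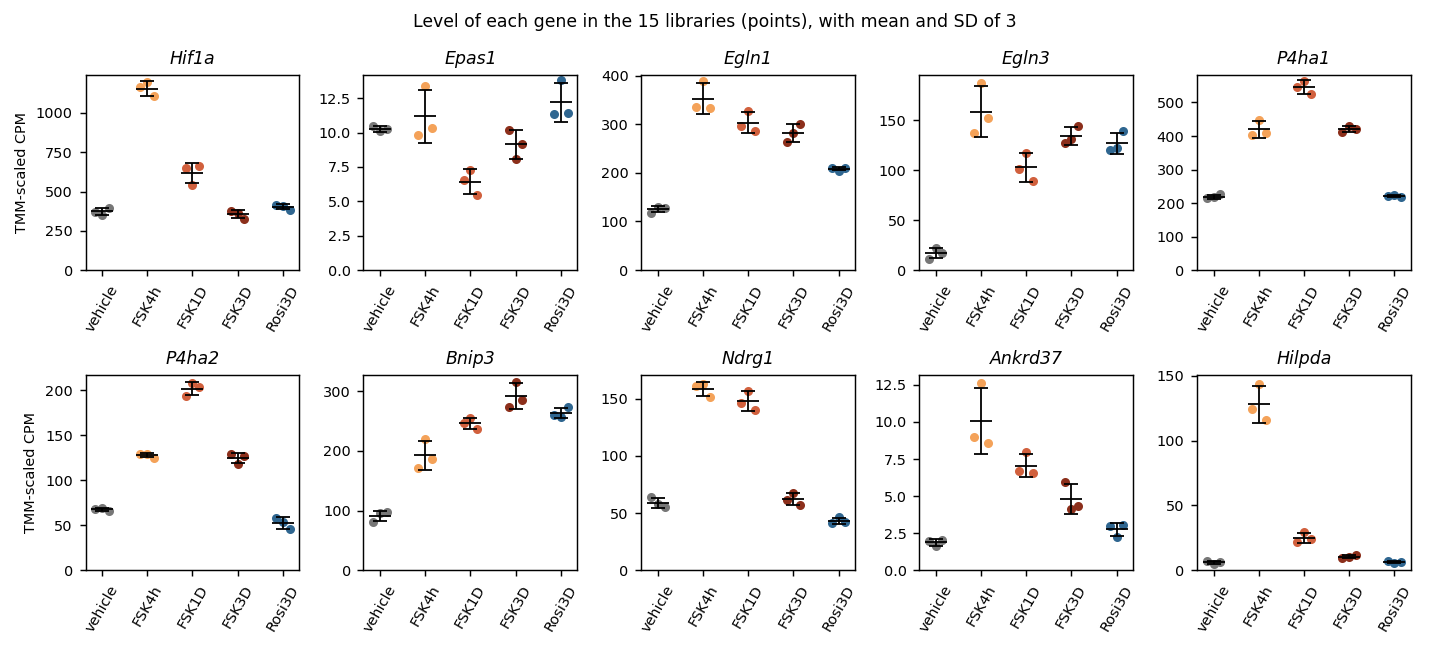
TMM-scaled CPM of each of the 10 genes in each library (points), with the mean and SD of the 3 libraries of a group (bars), for vehicle, the 3 forskolin times in order and Rosi3D. Hif1a and Hilpda peak in FSK4h, P4ha1 and P4ha2 in FSK1D and Bnip3 in FSK3D, while Epas1 is lowest in FSK1D.

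Counted over the 10 genes, 9 were called higher and 0 lower in FSK4h against vehicle, where 59% of tested genes were called, 28.4% higher and 30.7% lower. Epas1 was not called, but with libraries thinned to the smallest one it was higher by 0.38 (adjusted p = 0.0427). In FSK1D 9 were higher and 1 lower, where 40.2% of tested genes were called, 19.5% higher and 20.7% lower. In FSK3D 7 were higher and 0 lower, where 52.9% were called, 25.9% higher and 27% lower. The median log2 fold change of the 10 was 1.46 at 4 h, 1.38 at 1 day and 0.91 at 3 days, while the median of all tested genes lay between -0.03 and 0.01. Rises of at least 2-fold numbered 7, 8 and 4 at the 3 times. How many of all tested genes rose at least 2-fold was not counted. By size, the smallest of these rises ranked 744 (Bnip3), 443 (Egln1) and 557 (Egln1) of 14421 tested genes. Each rank is thus the number of tested genes, called or not, that rose at least as much as the gene named. FSK4h S5 was the highest of its 3 libraries for 9 of the 10 genes, and FSK1D S8 likewise for 9 of the 10. Leaving out each library in turn left the counts of 9 higher at 4 h and 1 day as they were.

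**Figure D3:**
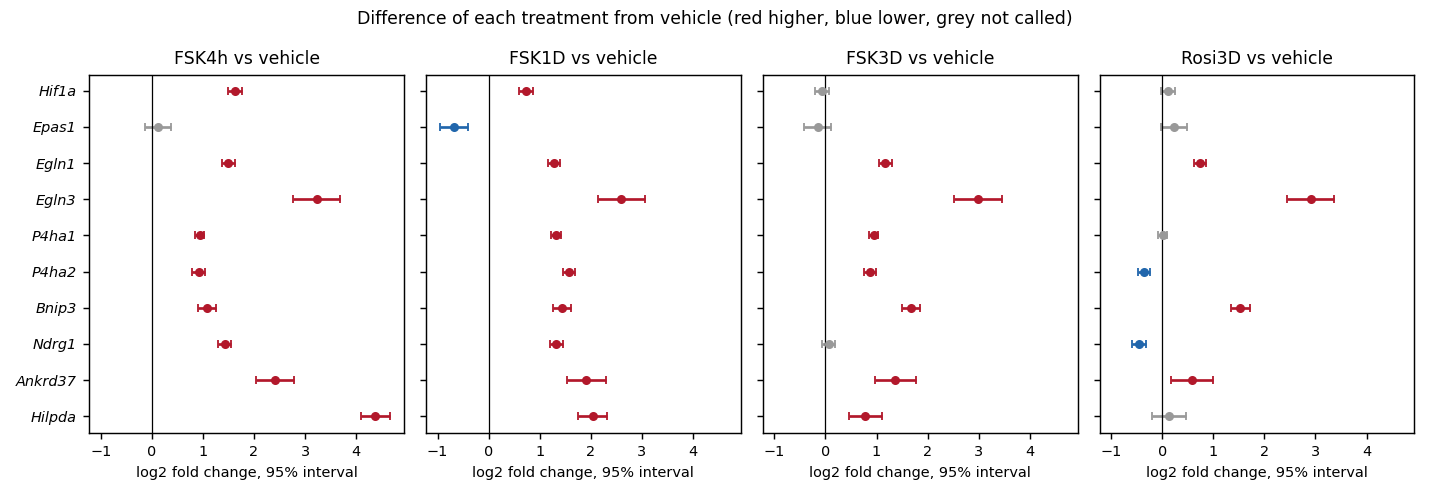
Log2 fold change of each of the 10 genes against vehicle with its 95% interval, in FSK4h, FSK1D, FSK3D and Rosi3D. Red marks higher, blue lower and grey not called; red marks number 9, 9, 7 and 4 in the 4 panels.

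The scaling mattered most for FSK4h. TMM factors averaged 0.907 there and 1.02 to 1.04 in the other groups, and with library size alone the median over all tested genes moved by -0.19 for FSK4h minus vehicle. For FSK1D minus FSK4h it moved by 0.16, and for FSK3D minus FSK4h by 0.18. The share of calls that were higher then became 27.3% in place of 48.1% in FSK4h against vehicle, 68.8% in place of 49.6% in FSK1D against FSK4h, and 65.1% in place of 51.1% in FSK3D against FSK4h. The 9 rises at 4 h were called under either scaling. The precursor of ribosomal RNA, Rn45s, took 4.15% to 8.87% of the counts of a library, with the lowest mean share (4.77%) in FSK3D.

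After rosiglitazone for 3 days 4 of the 10 genes were called higher and 2 lower than in vehicle, a share close to the 60.6% of all tested genes called, 28.6% higher and 32% lower. The count of higher genes was 4 to 6 under other settings and 3 to 5 with 1 library left out. The median of the 10 was 0.19, beside -0.01 for all tested genes. Egln3 had 119.9, 122 and 139 CPM in the Rosi3D libraries, against 11.6, 22.2 and 17.3 CPM in vehicle, and was higher by 2.90 ± 0.21 (adjusted p = 2.09e-07). Bnip3 had 261, 257 and 273 CPM in Rosi3D, against 81.5, 95.6 and 96.9 CPM in vehicle, a difference of 1.53 ± 0.08 (adjusted p = 7.80e-11). Both were far outside the vehicle range. Egln1 reached 211, 204 and 211 CPM in Rosi3D, against 117, 129.8 and 128 CPM in vehicle, a smaller rise of 0.74 ± 0.06 (adjusted p = 1.61e-11).

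Ankrd37 had 2.96, 2.28 and 3.04 CPM in Rosi3D, against 2.01, 1.61 and 2.02 CPM in vehicle. Its rise of 0.57 ± 0.20 (adjusted p = 0.0144) rested on few counts: the adjusted p was 0.0654 without vehicle S2, 0.0621 without Rosi3D S13 and 0.216 with libraries thinned to the smallest one. P4ha2 had 58.2, 53.6 and 46.0 CPM in Rosi3D, against 68.1, 69.7 and 65.9 CPM in vehicle, and fell by 0.36 ± 0.06 (adjusted p = 3.37e-06). Ndrg1 had 41.3, 46.4 and 41.9 CPM in Rosi3D, against 63.7, 58.0 and 55.0 CPM in vehicle, and fell by 0.45 ± 0.06 (adjusted p = 2.19e-07). For these last genes all Rosi3D libraries were below all vehicle libraries.

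The 4 genes not called in Rosi3D were Hif1a, Epas1, P4ha1 and Hilpda. P4ha1 had 222, 223 and 217 CPM in Rosi3D, against 215, 217 and 226 CPM in vehicle, a difference of 0.01 with a 95% interval of -0.08 to 0.10 (adjusted p = 0.848). Hilpda had 7.30, 5.81 and 6.81 CPM in Rosi3D, against 7.25, 5.02 and 6.16 CPM in vehicle, a difference of 0.14 (95% interval -0.19 to 0.46, adjusted p = 0.475). Both overlapped the vehicle libraries. Hif1a had 415, 410.5 and 385 CPM in Rosi3D, against 371, 352 and 397 CPM in vehicle, a difference of 0.11 (95% interval -0.02 to 0.25, adjusted p = 0.147). Epas1 had 11.3, 13.8 and 11.4 CPM in Rosi3D, against 10.5, 10.1 and 10.2 CPM in vehicle, a difference of 0.24 (95% interval -0.02 to 0.49, adjusted p = 0.0985). With only the Rosi3D and vehicle libraries in the fit both were called, at adjusted p = 0.0203 for Hif1a and 0.0472 for Epas1.

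FSK3D and Rosi3D compare the agents at the same duration. Of the 10 genes 6 were higher and 2 lower in FSK3D than in Rosi3D, where 43.1% of tested genes were called, 22.5% higher and 20.7% lower. The collagen hydroxylases differed most: P4ha2 averaged 125 ± 5.73 CPM in FSK3D and 52.6 ± 6.16 CPM in Rosi3D (SD, n = 3), a difference of 1.24 ± 0.06 (adjusted p = 3.75e-18). P4ha1 averaged 421 ± 9.93 CPM in FSK3D and 221 ± 3.10 CPM in Rosi3D, a difference of 0.93 ± 0.05 (adjusted p = 2.94e-18). Ankrd37 (0.79 ± 0.19, adjusted p = 0.000665), Hilpda (0.64 ± 0.15, adjusted p = 0.00186), Ndrg1 (0.52 ± 0.06, adjusted p = 4.98e-08) and Egln1 (0.43 ± 0.06, adjusted p = 5.96e-07) were also higher in FSK3D. In all 6 the FSK3D libraries lay above the Rosi3D libraries.

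For Egln3 the difference between FSK3D and Rosi3D was 0.08, with a 95% interval of -0.31 to 0.48 (adjusted p = 0.747). The Bnip3 difference was 0.14, with a 95% interval of -0.03 to 0.32 (adjusted p = 0.169). The Bnip3 libraries of these groups did not overlap, and it was called with only these groups in the fit (adjusted p = 0.0235) and with no filter on low counts (adjusted p = 0.0229). These intervals leave room for differences of up to 0.48 and 0.32, so the levels were not shown to be equal. Hif1a was lower in FSK3D than in Rosi3D, at -0.18 ± 0.07 (adjusted p = 0.0350) and so was Epas1, at -0.39 ± 0.13 (adjusted p = 0.0133). Both calls were fragile. Without single libraries the adjusted p of Hif1a was 0.0511 (FSK3D S11), 0.154 (FSK3D S12), 0.0921 (Rosi3D S13) and 0.0719 (Rosi3D S14), and with library size alone it was 0.0724. Epas1 had adjusted p = 0.0635 without FSK3D S11 and 0.0795 without Rosi3D S14. The ratio of Egln1 over Egln3 per kb was 1.59 ± 0.0263 in FSK3D and 1.25 ± 0.0925 in Rosi3D, and that of P4ha1 over P4ha2 was 1.96 ± 0.138 in FSK3D and 2.45 ± 0.268 in Rosi3D (SD, n = 3).

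The forskolin times were also set against each other, since a rise at one time and its absence at another is not itself a test of the change. From 4 h to 1 day 3 of the 10 genes were higher and 6 lower, where 57.3% of tested genes were called, 28.4% higher and 28.9% lower. Hilpda was lower in FSK1D than in FSK4h, at -2.34 ± 0.11 (adjusted p = 3.44e-12) and so was Hif1a, at -0.90 ± 0.07 (adjusted p = 2.10e-10). P4ha2 was higher in FSK1D by 0.66 ± 0.06 (adjusted p = 6.23e-12), P4ha1 by 0.38 ± 0.04 (adjusted p = 5.61e-09) and Bnip3 by 0.36 ± 0.08 (adjusted p = 0.00135). Egln3 was also lower in FSK1D, at -0.62 ± 0.18 (adjusted p = 0.0115, but 0.0510 without FSK4h S5) as was Ankrd37, at -0.51 ± 0.16 (adjusted p = 0.00707, but 0.115 without FSK4h S5 and 0.0629 with library size alone). Egln1 was lower, at -0.22 ± 0.06 (adjusted p = 0.00206), and with library size alone this was -0.05 (adjusted p = 0.397).

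From 1 day to 3 days 2 of the 10 were higher and 6 lower, where 51% of tested genes were called, 25.2% higher and 25.8% lower. Ndrg1 was lower in FSK3D than in FSK1D, at -1.26 ± 0.06 (adjusted p = 1.85e-17), and so were Hilpda, at -1.25 ± 0.13 (adjusted p = 2.65e-07), and Hif1a, at -0.80 ± 0.07 (adjusted p = 2.11e-09). Epas1 was higher in FSK3D by 0.52 ± 0.14 (adjusted p = 0.00163). Egln3 was not called (0.39, 95% interval -0.01 to 0.79, edgeR, adjusted p = 0.0995), though its libraries did not overlap. Egln3 was called with only these groups in the fit (adjusted p = 0.00205) and with no filter on low counts (adjusted p = 5.66e-11). Bnip3 was higher by 0.24 ± 0.08 (adjusted p = 0.0197), a call that was lost without FSK1D S7, FSK1D S9, FSK3D S11 or FSK3D S12 (adjusted p = 0.0534 to 0.0816). Ankrd37 was lower, at -0.54 ± 0.17 (adjusted p = 0.00900, a call lost without FSK3D S12 and, at 0.103, with thinned libraries). Between FSK3D and FSK4h 1 gene, Bnip3, was higher (0.60 ± 0.08, adjusted p = 6.24e-06) and 5 were lower, where 68.5% of tested genes were called, 35% higher and 33.5% lower. The P4ha1 levels at these times differed by 0.00 (95% interval -0.09 to 0.09, adjusted p = 0.943), but with library size alone by 0.18 (adjusted p = 0.000417).

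**Figure D4:**
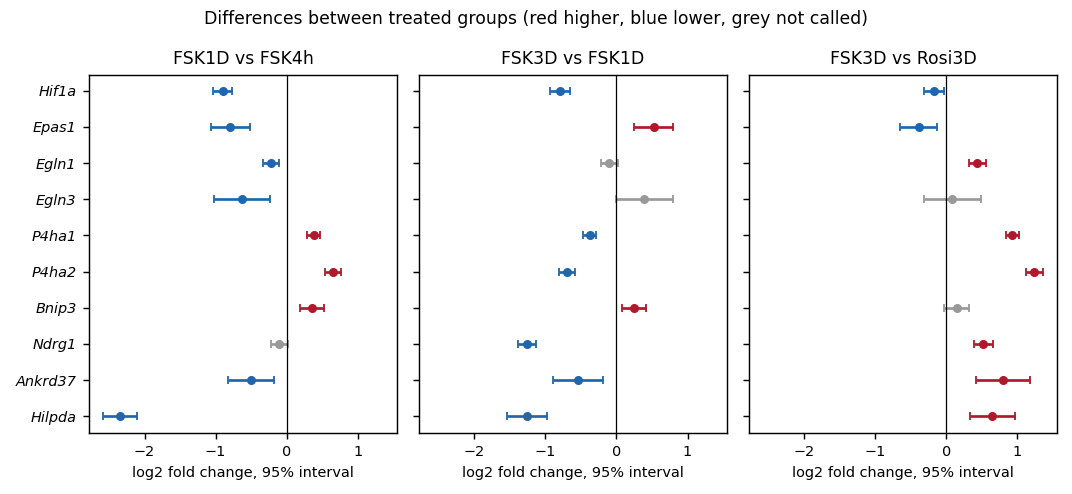
Log2 fold change with 95% interval of each of the 10 genes in FSK1D against FSK4h, FSK3D against FSK1D and FSK3D against Rosi3D. Red marks higher, blue lower and grey not called; Hilpda at -2.34 in the first panel is the largest difference shown.

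Per kilobase the 10 genes changed their order with treatment. In vehicle the highest level per kb was that of Hif1a (78.4 ± 4.78 CPM per kb), and Ankrd37 (2.08 ± 0.258) and Epas1 (1.92 ± 0.0392) were the lowest (SD, n = 3). Hilpda had 116 ± 12.8 CPM per kb in FSK4h, against 5.56 ± 1.01 CPM per kb in vehicle. In FSK4h it stood above P4ha1 (104 ± 5.99 CPM per kb) and Bnip3 (109.7 ± 14.02 CPM per kb) by less than the spread between libraries. In FSK3D Bnip3 led with 166 ± 12.2 CPM per kb, and in Rosi3D it led with 150.2 ± 4.67. Hif1a was next in Rosi3D, with 84.8 ± 3.33 CPM per kb. The Egln3 groups fell in the order FSK4h, FSK3D, Rosi3D, FSK1D and vehicle. Neighbours among the first 3 overlapped and were not called. With no filter on low counts, however, Egln3 was called lower in FSK3D than in FSK4h, at -0.23 (edgeR, adjusted p = 5.69e-05). The step to FSK1D from Rosi3D had no test, though their libraries did not overlap.

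The other genes of the HIF machinery went in both directions. Of 18 tested genes on that list 8 were higher and 5 lower in FSK4h than in vehicle, 5 and 4 in FSK1D, 4 and 8 in FSK3D, and 3 and 8 in Rosi3D, with medians of 0.06, 0.01, -0.09 and -0.07. Among all tested genes the shares called in these comparisons were 59%, 40.2%, 52.9% and 60.6%. Vhl, the recognition subunit of the ligase that removes HIF-α, was higher by 0.92 ± 0.06 at 4 h, 0.65 ± 0.06 at 1 day and 0.50 ± 0.06 at 3 days of forskolin (adjusted p at most 3.48e-08), and by 0.15 ± 0.06 in Rosi3D (adjusted p = 0.0415). Arnt, the constant partner, was higher by 0.26, 0.20 and 0.13 at these times. Egln2, the third EGLN hydroxylase, was lower in FSK4h, at -0.48 ± 0.07 (adjusted p = 1.63e-07), opposite in sign to Egln1 and Egln3. Arnt2, an alternative partner that was scarce here, had differences of -1.68 at 4 h, -1.79 at 1 day and -2.61 at 3 days of forskolin and -2.92 in Rosi3D, all called. Hif1an, the asparagine hydroxylase that blocks HIF activity, was not called in any comparison with vehicle. Siah2, a ligase that targets EGLN enzymes, was higher by 1.38 ± 0.07 at 4 h, and Hif3a was below the filter, with at most 8 counts in a library.

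Among 59 other tested hypoxia targets 46 were higher and 5 lower in FSK4h than in vehicle, 43 and 6 in FSK1D, 39 and 10 in FSK3D, and 34 and 16 in Rosi3D, against the shares of all tested genes given above. Their medians were 0.80, 0.91, 0.81 and 0.54. At 4 h the largest rises were in Ddit4, an inhibitor of mTORC1 (2.98 ± 0.12), Slc2a1, the glucose transporter GLUT1 (2.81 ± 0.06), and Hk2, hexokinase 2 (2.55 ± 0.08). At 3 days they were in Ero1l, an endoplasmic reticulum oxidase (3.13 ± 0.08), Aldoc (2.21 ± 0.19) and Pdk1, a kinase that limits pyruvate oxidation (2.08 ± 0.06). Slc2a1 had its largest difference from vehicle at 4 h, as Hif1a and Hilpda did, with 2.81, 1.69 and 0.68 along the course. The glycolytic genes Pgk1 (1.03, 1.80 and 1.47) and Ldha (1.07, 1.51 and 1.20) had theirs at 1 day, as P4ha1 and P4ha2 did. Vegfa, the angiogenic factor, was higher by 2.06, 1.13 and 1.13. In Rosi3D Slc2a1 was lower, at -0.22, Vegfa higher by 0.68, Pgk1 by 0.86 and Ldha by 0.54, and Angptl4, also a PPAR target, was higher by 1.89 ± 0.06.

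**Figure D5:**
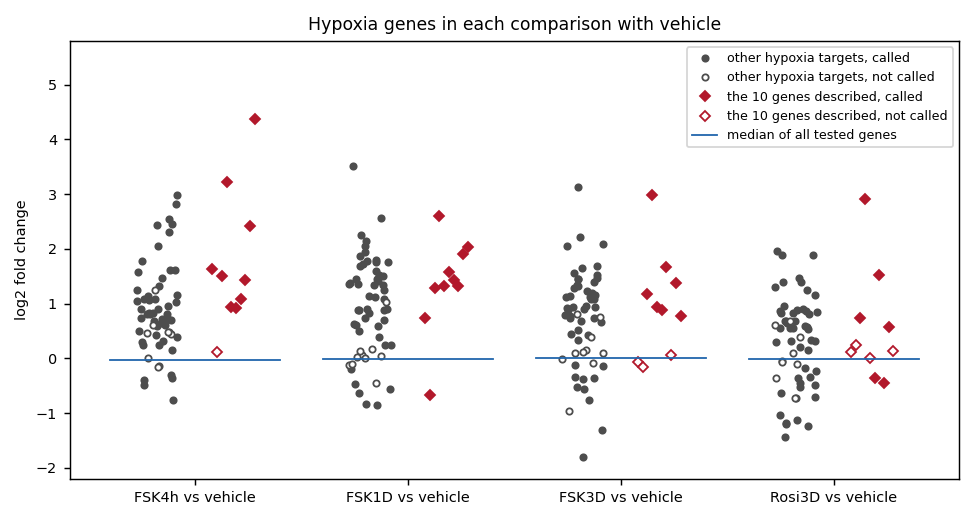
Log2 fold change against vehicle of the 10 genes (red diamonds) and of 59 other hypoxia targets (grey points), with open symbols for genes not called and a blue line at the median of all tested genes. The targets lie mostly above the line in all 4 comparisons, with 5 called lower in FSK4h and 16 in Rosi3D.

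Likeness of pattern was described by Pearson's r of log2 (CPM + 1) over the 15 libraries. P4ha1 and P4ha2 had r = 0.970, Hif1a and Hilpda 0.959, Egln1 and Ankrd37 0.915, and Egln3 and Bnip3 0.901. Hif1a and Bnip3 had r = 0.05, and Epas1 and P4ha2 had r = -0.733. The 15 points share their libraries and fall into 5 treatment groups, so r is a description only. Among all tested genes with a mean of at least 1 CPM, the nearest to Hif1a was Snapc1 (r = 0.990), to Hilpda Ppme1 (0.991), to Ndrg1 Socs3 (0.991) and to Egln3 Elmod2 (0.990). Vhl was the nearest gene to Ankrd37 (0.974), the glycolytic gene Aldoa to Bnip3 (0.969), Ak4 to Egln1 (0.975), Tbc1d8b to P4ha1 (0.975), Spidr to P4ha2 (0.983) and Atp6v1b2 to Epas1 (0.926). Of the 30 genes that made up the 3 nearest to each member, not all named here, 8 were also among the 3 nearest over group means.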

How the data were processed

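TRIzol RNA depleted of ribosomal RNA was sequenced in 15 libraries, per the labels. The table the authors deposited holds raw read counts and a length for each gene. The submitters' processing notes name fastp, STAR, featureCounts and the build GRCm38 (mm10). Versions, annotation and the handling of strand and read pairs are not given there. Low counts were mostly even (59.6% to 63.6% of counts from 1 to 20, against 49.2% to 51.3% among higher counts).

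Counts were filtered with filterByExpr (14421 of 24421 genes), scaled by TMM and tested in R 4.3.3 with the edgeR 4.0.16 quasi-likelihood test (robust fit, 1 mean per group, 10 residual degrees of freedom), two-sided, with Benjamini-Hochberg adjustment over all tested genes and calls at 0.05. SE was the log2 fold change divided by the square root of F. The common biological coefficient of variation was 5.97%. Alternatives used DESeq2 1.42.0, other scalings, filters, depths and samples. Columns name a group and a running number, so each was an unnumbered library of its group. Libraries of a group differed by more than sampling noise (chi-square per degree of freedom 3.20 to 11.8). Positions are from GENCODE vM21 and promoter windows from RefSeq (GRCm38.p6).

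The 10 members and all lists were chosen with earlier results of these data known. Genes that could be named were the 10 members, any gene of the machinery and relatives lists, and the 3 genes nearest to each member. Among other hypoxia targets these were the 3 largest and 3 smallest called differences in each comparison with vehicle, plus Vegfa, Slc2a1, Pgk1 and Ldha. Not all of these genes are named above. The procedure was tested on simulated data.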

Additional observations from a re-analysis of the deposited data

Results flagged for a closer look

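Effects against vehicle that differed between forskolin times, by a direct edgeR quasi-likelihood test of the times, are listed here as log2 fold changes. Of the 10 genes 9 differed between FSK1D and FSK4h, where 57.3% of all tested genes were called. Lower at 1 day were Hif1a by -0.90, Epas1 by -0.79, Egln1 by -0.22, Egln3 by -0.62, Ankrd37 by -0.51 and Hilpda by -2.34. Higher at 1 day were P4ha1 by 0.38, P4ha2 by 0.66 and Bnip3 by 0.36. The calls of Egln1, Egln3 and Ankrd37 were lost under some settings, as given above. Between FSK3D and FSK1D 51% of all tested genes were called. Hif1a differed by -0.80, P4ha1 by -0.38, P4ha2 by -0.69, Ndrg1 by -1.26, Ankrd37 by -0.54 and Hilpda by -1.25. Epas1 was higher at 3 days by 0.52 and Bnip3 by 0.24. The calls of Ankrd37 and Bnip3 were lost under some settings, as given above. Between FSK3D and FSK4h 68.5% of all tested genes were called, a share that the 10 genes did not exceed. Hif1a differed by -1.70, Egln1 by -0.32, Ndrg1 by -1.36, Ankrd37 by -1.05 and Hilpda by -3.60, and Bnip3 was higher at 3 days by 0.60. The time at which vehicle cells were harvested does not enter these differences, since vehicle cancels out of them.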

How the results depend on the processing

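Of 720 gene results recomputed under other scalings, tools, filters, depths and sample choices, 701 were unchanged. Another 5 lost a call, 13 gained a call and 1 reversed. Unchanged means on the same side of the threshold and, where called, in the same direction. Results called under neither setting were counted as unchanged even where the sign differed. The reversal was P4ha2 in FSK3D against FSK4h, at 0.14 with library size alone (edgeR, adjusted p = 0.0253). With TMM scaling P4ha2 was not called there, at -0.04 (edgeR, adjusted p = 0.581). Of 480 results with 1 library left out, 460 were unchanged in this sense, 15 lost and 5 gained a call. With library size alone, 1 member was lower in FSK3D than in Rosi3D in place of 2, and 3 were higher in FSK3D than in FSK4h in place of 1. Leaving out 1 library gave 1 to 2 members higher in FSK3D than in FSK1D and 0 to 2 lower in FSK3D than in Rosi3D. The cause was not tested. No paired analysis was possible because the table's columns carry running library numbers and not the replicate numbers of the labels. Depth limits Ankrd37 and Epas1 most, with as few as 49 and 118 counts in a library.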

Other observations

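Partners of the members gave further contrasts. Of 14 tested genes of collagen hydroxylation around P4ha1 and P4ha2, 5 were higher and 1 lower in FSK4h than in vehicle, 6 and 1 in FSK1D, 2 and 8 in FSK3D, and 1 and 11 in Rosi3D, where 59%, 40.2%, 52.9% and 60.6% of all tested genes were called in either direction. P4hb, the disulfide isomerase that forms the enzyme with the P4ha subunits, was higher by 0.53 ± 0.04 at 4 h and 0.81 ± 0.04 at 1 day of forskolin and lower in Rosi3D, at -0.56 ± 0.04 (edgeR, adjusted p at most 2.56e-13 in these comparisons). At 3 days of forskolin P4hb differed from vehicle by -0.05 (adjusted p = 0.297), while P4ha1 and P4ha2 were still higher. P4ha3, the third α subunit, was not called at any forskolin time and was lower in Rosi3D, at -1.51 ± 0.11. Plod2, a lysyl hydroxylase and hypoxia target, was higher by 0.75 ± 0.05 in FSK3D and lower in Rosi3D, at -0.45 ± 0.05, and of the 14 genes 10 were higher and 0 lower in FSK3D than in Rosi3D, where 22.5% of all tested genes were higher and 20.7% lower.

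Among relatives of the target genes, the mitophagy receptor Bnip3l was higher than in vehicle by 0.42, 0.89 and 0.78 at 4 h, 1 day and 3 days of forskolin and by 0.95 in Rosi3D, as its paralog Bnip3 was. Pnpla2 encodes ATGL, the lipase that Hilpda inhibits. It was lower in FSK1D, at -0.38 ± 0.06, and higher by 0.60 ± 0.06 in FSK3D and by 1.26 ± 0.06 in Rosi3D. G0s2, another inhibitor of ATGL, was lower at 4 h, at -1.35 ± 0.11, when Hilpda was at its highest, and higher by 1.45 ± 0.10 in Rosi3D, where Hilpda was not called. The other times did not show such opposite changes. In FSK1D Hilpda was higher and G0s2 was not called (0.08, edgeR, adjusted p = 0.577). In FSK3D both were higher, G0s2 by 0.67 ± 0.10 and Hilpda by 0.78 ± 0.15. Ndrg4 was lower in Rosi3D, at -1.10 ± 0.09, the same sign as Ndrg1, and Ndrg3 was higher by 0.26 ± 0.06.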
